A study of Homo sapiens with 4 samples.

Results

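LTR12 is the long terminal repeat (LTR) of ERV9, a class I endogenous retrovirus of primates, and 7 of the 373 LTR subfamilies in the deposited table carry its name: LTR12, LTR12B, LTR12C, LTR12D, LTR12E, LTR12F and LTR12_. They were taken by name. Whether LTR12_ is an entry of its own in the repeat library or a shortened name is not known, and it is treated as the table lists it. The values are native chromatin immunoprecipitation sequencing (ChIP-seq) of single nucleosomes from HCT116, an established human colorectal carcinoma cell line. Cells received 300 nM 5-aza-CdR (5-aza-2'-deoxycytidine, decitabine, which traps DNA methyltransferases) for 24 h, or PBS as vehicle, and were harvested at 5 days. H3K9me2 and H3K9me3, which are histone H3 carrying 2 or 3 methyl groups on lysine 9, were each profiled in 1 library from 5-aza-CdR cells and 1 library from PBS cells.

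An LTR carries the promoter, enhancer and polyadenylation signals of a retrovirus, and LTR12 copies hold CCAAT motifs bound by the transcription factor NF-Y. Most copies are silent in somatic cells, where DNA methylation of their CpG sites and H3K9 methylation are the main known repressive layers. LTR12 copies, LTR12C above all, are known to start transcripts in the germ line, and in cultured cells when DNA methyltransferases or histone deacetylases are inhibited. H3K9me2 is laid down mainly by the EHMT1 and EHMT2 enzymes, and H3K9me3 at young retroviral repeats mainly by SETDB1, brought in by TRIM28 and zinc finger proteins.

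Each value is the authors' z-score of a subfamily in 1 library, a relative score with no unit. The sources used here do not state the reference of the score, the handling of reads that fit several copies or whether an input library was used. A subfamily value pools all its copies, so a large change at few copies and a small change at many cannot be told apart. No group has a second library and the read depth is unknown, so no test of a treatment difference was possible. The table lists repeats and no genes, so the cell line could not be checked against marker genes. Over the 373 subfamilies the median H3K9me2 z-score was 0.312 in 5-aza-CdR and -0.412 in PBS, and the median H3K9me3 z-score was 0.468 in 5-aza-CdR and -0.504 in PBS.

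All 7 LTR12 subfamilies were rich in CpG. Their CpG density, given in the table as a ratio whose denominator is not stated, ran from 0.0146 to 0.0491 with a median of 0.0209, against a median of 0.00734 over all subfamilies. LTR12E was at rank 3 of the 373 with 0.0491 and LTR12C at rank 5 with 0.0384. LTR12D followed at rank 8 with 0.0286, LTR12_ at rank 15 with 0.0209, LTR12F at rank 18 with 0.0190, LTR12 at rank 23 with 0.0169 and LTR12B at rank 40 with 0.0146.

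H3K9me2 was low at every LTR12 subfamily in both libraries. The z-scores lay between -0.446 and -0.0496 in 5-aza-CdR, with a median of -0.235, and between -0.789 and -0.576 in PBS, with a median of -0.680. All 7 were in the lowest 25% of the 373 subfamilies in both libraries. In the lowest 10% were 5 of 7 in 5-aza-CdR and 4 of 7 in PBS.

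LTR12E, the member richest in CpG, had an H3K9me2 z-score of -0.446 in 5-aza-CdR and -0.735 in PBS, with 6 and 21 subfamilies below it. LTR12C, the member best known as an inducible promoter, had -0.382 in 5-aza-CdR and -0.706 in PBS. LTR12B, the member poorest in CpG, had -0.404 in 5-aza-CdR and -0.789 in PBS. These 3 were the lowest LTR12 subfamilies for H3K9me2 in both libraries, and LTR12B was the lowest of the family in PBS.

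LTR12D had an H3K9me2 z-score of -0.235 in 5-aza-CdR and -0.576 in PBS. LTR12 had -0.198 in 5-aza-CdR and -0.608 in PBS. LTR12F had -0.0666 in 5-aza-CdR and -0.680 in PBS, and LTR12_ had -0.0496 in 5-aza-CdR and -0.610 in PBS. LTR12D was the highest member in PBS and only the fourth lowest in 5-aza-CdR, whereas LTR12F was the fourth lowest in PBS and the second highest in 5-aza-CdR.

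H3K9me3 was also low in PBS, with a narrow range, and spread out in 5-aza-CdR. The z-scores lay between -0.0415 and 0.463 in 5-aza-CdR, with a median of 0.186, and between -0.572 and -0.515 in PBS, with a median of -0.543. The SD over the 7 members was 0.191 in 5-aza-CdR and 0.0194 in PBS, and over all subfamilies 0.206 and 0.0354. The lowest 25% of the table held 5 of 7 members in 5-aza-CdR and 6 of 7 in PBS, and all 7 were below the median of all subfamilies in both libraries.

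**Figure D1:**
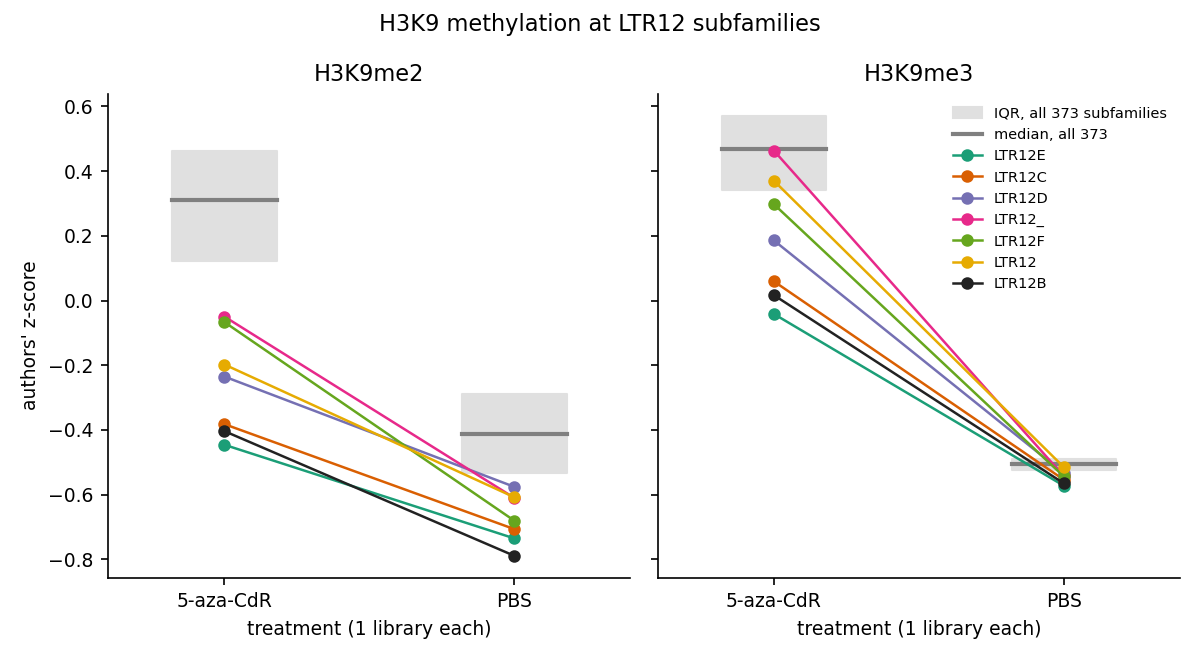
The authors' z-score (vertical axis, no unit) of each LTR12 subfamily in the 5-aza-CdR and PBS libraries of each mark, 1 library per point, with the median and interquartile range of all 373 subfamilies in grey. H3K9me2 points lie below the grey boxes in both libraries, and H3K9me3 in 5-aza-CdR fans out from -0.0415 at LTR12E to 0.463 at LTR12_.

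For H3K9me3, LTR12E had a z-score of -0.0415 in 5-aza-CdR and -0.572 in PBS. LTR12B had 0.0167 in 5-aza-CdR and -0.565 in PBS, and LTR12C had 0.0594 in 5-aza-CdR and -0.554 in PBS. The 3 members lowest for H3K9me2 were therefore also lowest for H3K9me3, in both libraries.

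LTR12D had an H3K9me3 z-score of 0.186 in 5-aza-CdR and -0.534 in PBS, and LTR12F had 0.298 in 5-aza-CdR and -0.543 in PBS. LTR12 had 0.370 in 5-aza-CdR and -0.515 in PBS. LTR12_ had 0.463 in 5-aza-CdR and -0.542 in PBS. LTR12_ came close to the median of the table in 5-aza-CdR, with 180 of 373 subfamilies below it, while 43 were below it in PBS.

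The comparison of 5-aza-CdR with PBS asked how the marks at LTR12 differed after the DNA methylation inhibitor. The z-score was higher in 5-aza-CdR at 7 of 7 subfamilies for each mark, as it was at 372 of 373 subfamilies for H3K9me2 and 373 of 373 for H3K9me3. On the deposited scale the difference was under the median of all subfamilies at 7 of 7 members for H3K9me2 and 6 of 7 for H3K9me3. Its median was 0.385 over the 7 members for H3K9me2, against 0.702 over all subfamilies, and 0.719 for H3K9me3, against 0.973. The direction for H3K9me3 depends on the scale: the members' median was -1.77 robust SDs from the median of all as deposited, -0.72 with SD 1 in each library and 0.98 as residuals from the principal line through PBS and 5-aza-CdR, where 0 of 7 members were under the median. For H3K9me2 the members' median stayed under the median of all on the other scales, but not every member did. LTR12F lay 0.67 robust SDs above it with SD 1, 0.56 on percentile ranks and 0.89 as residuals. LTR12_ lay above it by 0.18 on ranks and 0.12 as residuals, and was at -0.083 with SD 1. Because the scaling of each library is unknown, a shift shared by all subfamilies cannot be told apart from a difference in scale between libraries, and the values below are read relative to the median of all.

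The limit used in place of a test was 2 robust SDs (from the median absolute deviation) under the median difference of all subfamilies, that is 0.452 for H3K9me2 and 0.687 for H3K9me3. For H3K9me2, 5 of 7 LTR12 subfamilies were below the limit, where 8.04% of all 373 subfamilies were, and 23.2% of the 125 richest in CpG, which include all 7 members. For H3K9me3, 3 of 7 were below the limit, where 7.24% of all subfamilies were, and 20% of the 125 richest in CpG. The same 3, LTR12B, LTR12C and LTR12E, were below it for both marks, as were 4.83% of all subfamilies. Above the median by more than 2 robust SDs were 0 of 7 members for either mark, where 2.95% of all subfamilies were for H3K9me2 and 1.88% for H3K9me3. The 125 richest in CpG reach down to a density of 0.00901, below every member, so they are a loose match. The 30 subfamilies outside LTR12 nearest to each member in CpG density came closer to the limits. Their median differences were 0.463 to 0.491 for H3K9me2 and 0.695 to 0.764 for H3K9me3. The share of them below the limits was not counted.

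LTR12E had the smallest H3K9me2 difference of the family, 0.289, at rank 5 from the lowest of the 373. LTR12C had 0.324, LTR12D 0.341, LTR12B 0.385 and LTR12 0.410, all below the limit of 0.452. LTR12_ with 0.560 and LTR12F with 0.614 lay within it. The 5 members below the limit were at ranks 5 to 20 from the lowest, and the other two at ranks 59 and 96.

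For H3K9me3 the difference was 0.531 at LTR12E, 0.582 at LTR12B and 0.613 at LTR12C, all below the limit of 0.687. LTR12D with 0.719, LTR12F with 0.841 and LTR12 with 0.885 were within the limit and under the median of all. LTR12_ had 1.01, with 216 of 373 subfamilies lower, and was the sole member above the median.

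**Figure D2:**
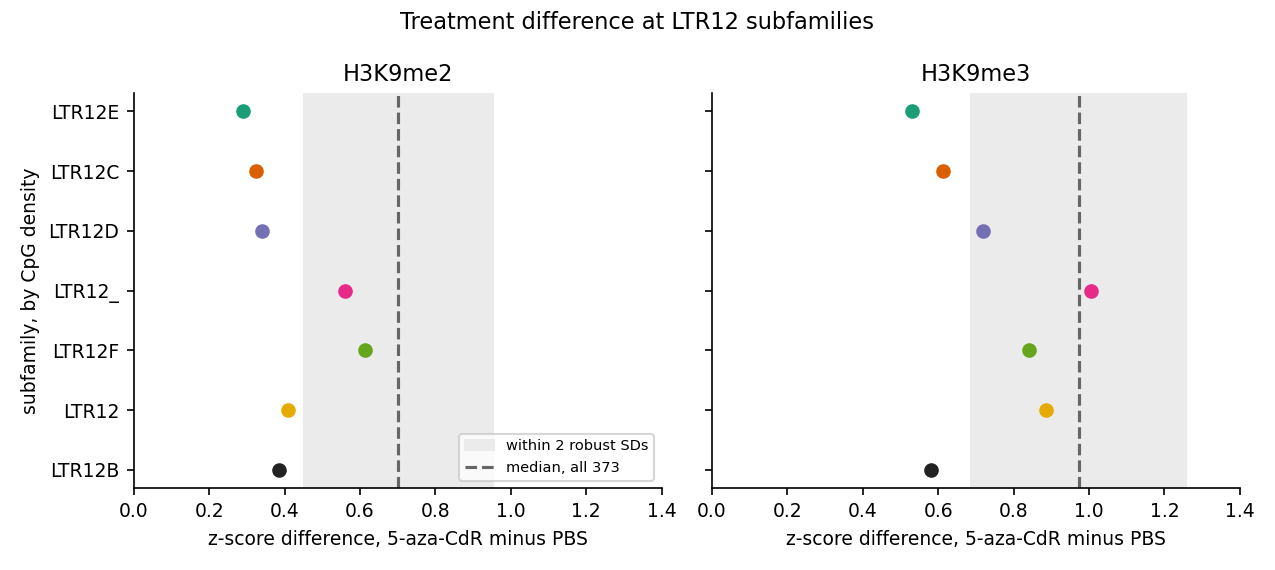
Difference in the authors' z-score, 5-aza-CdR minus PBS (horizontal axis), for each LTR12 subfamily and mark, with LTR12E, the richest in CpG, at the top. The shaded band is the median of all 373 subfamilies plus and minus 2 robust SDs; 5 of 7 points lie to its left for H3K9me2 and 3 of 7 for H3K9me3.

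The counts depend on the scale. With each library set to mean 0 and SD 1 over the 373 subfamilies, 1 of 7 members (LTR12D) was below the limit for H3K9me2 and 0 of 7 for H3K9me3, where 2.95% and 4.56% of all subfamilies were. On percentile ranks the counts were 0 of 7 for both marks, where 3.49% and 6.43% of all subfamilies were. As residuals from the principal line they were also 0 of 7, beside 2.68% and 5.09%. With a limit of 3 robust SDs the counts were 2 and 1 of 7, beside 2.14% and 1.88%. With 2 ordinary SDs they were 3 and 1 of 7, beside 2.68% and 2.95%. Without the 20% of subfamilies nearest 0 they were 5 and 1 of 7, beside 7.69% and 2.34%.

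In terms of rank, the members moved in both directions. LTR12D was at percentile 4.42 of the 373 subfamilies for H3K9me2 in 5-aza-CdR and at 17.8 in PBS. LTR12F was at percentile 14.1 for H3K9me2 in 5-aza-CdR and at 8.71 in PBS. For H3K9me3, LTR12_ was at percentile 48.4 in 5-aza-CdR and at 11.7 in PBS, and LTR12E was at 1.74 in 5-aza-CdR and at 2.55 in PBS. LTR12_ moved by 36.7 percentile points, and the other 6 members by at most 8.31 in either direction for that mark.

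The table sets the marks against CpG density, which falls as methylated cytosines mutate over the age of a repeat. Among the 366 subfamilies that are not LTR12, z-scores were lower where CpG density was higher, with Spearman correlations of -0.76 for H3K9me2 and -0.66 for H3K9me3 in 5-aza-CdR, and -0.73 and -0.60 in PBS. Within LTR12 the order was looser. Across the 7 members the correlation was -0.32 for H3K9me2 and -0.36 for H3K9me3 in 5-aza-CdR, and 0 and -0.32 in PBS. These points share libraries and ancestry, and the values are descriptions.

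Single members set these values. Without LTR12B, a choice made after its values were seen, the correlation across the other 6 members was -0.77 for H3K9me2 and -0.83 for H3K9me3 in 5-aza-CdR, and -0.60 and -0.77 in PBS. LTR12E and LTR12C, the members richest in CpG, carried the negative sign where there was one. For H3K9me2 in PBS the correlation across all members was 0. Without LTR12E and LTR12C, the correlation across 5 members was 0.40 and 0.30 in 5-aza-CdR and 0.70 and 0.40 in PBS, in the same order of marks.

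**Figure D3:**
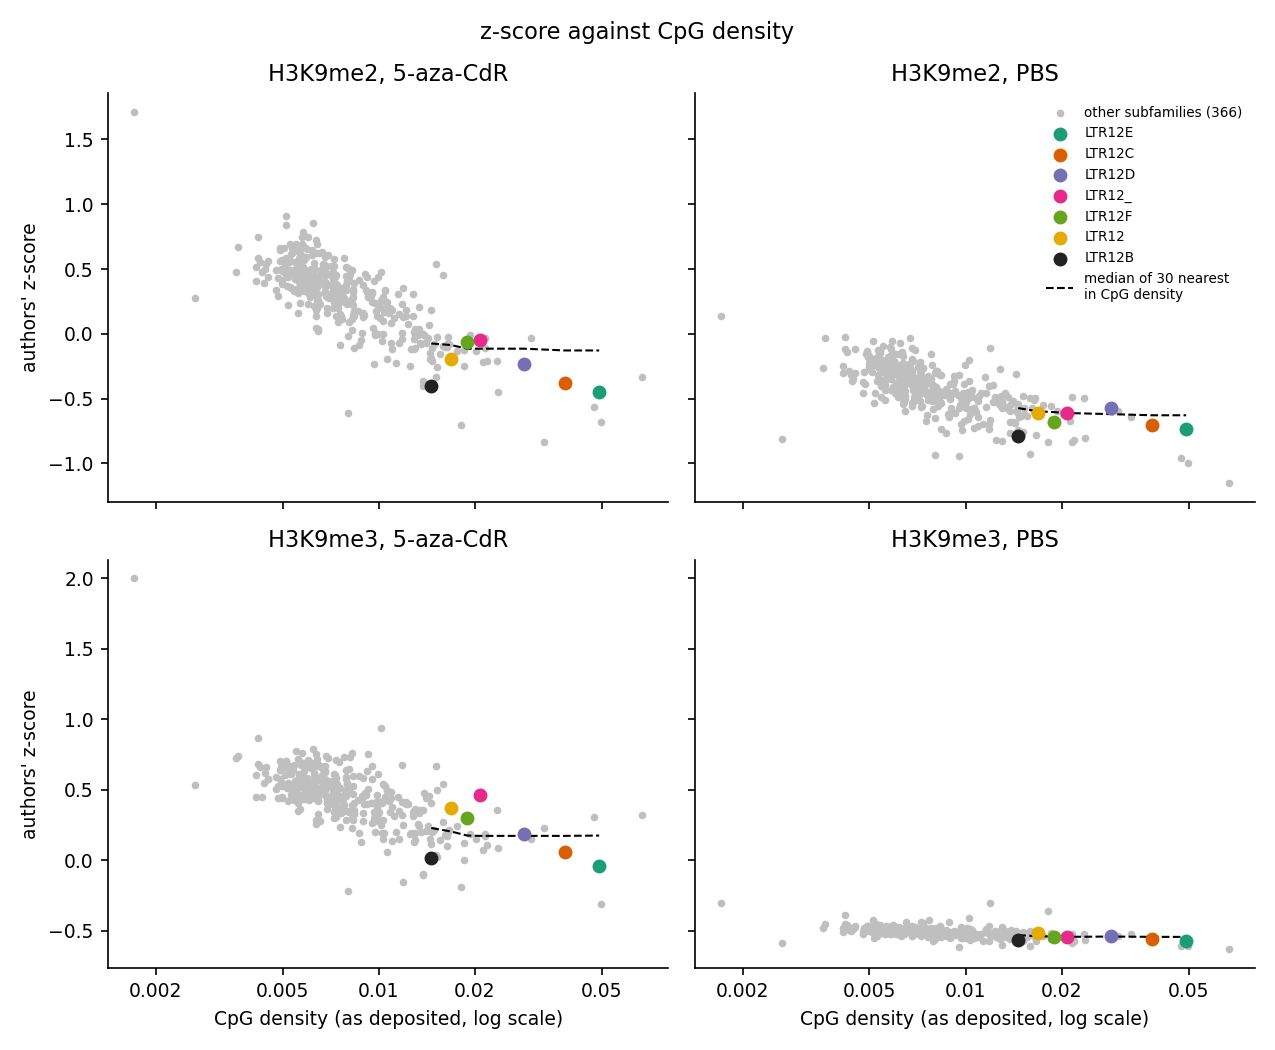
The authors' z-score (vertical axis) against CpG density as deposited (horizontal axis, log scale) for the 7 LTR12 subfamilies in colour and the other 366 in grey, by mark and treatment. The dashed line joins, at each member's density, the median of the 30 other subfamilies nearest in CpG density; LTR12B (0.0146) lies under it in all 4 panels.

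Each member was then set beside the 30 subfamilies outside LTR12 that were nearest to it in CpG density. Much of the low H3K9 methylation of LTR12 was shared by these neighbours. Their median H3K9me2 z-score lay between -0.128 and -0.0746 in 5-aza-CdR and between -0.629 and -0.573 in PBS, well below the medians of the whole table. The members' median gap to the neighbours was -0.120 for H3K9me2 in 5-aza-CdR and -0.0761 in PBS, with 5 of 7 members under their neighbours in each. That direction depends on how the trend with CpG density is drawn: against a straight line on log10 CpG density through the other 366 subfamilies, 2 of 7 were under it in each library. The median H3K9me2 gap was then 0.46 SDs in 5-aza-CdR and 0.51 in PBS, where the neighbours gave -0.41 in both (SD over all subfamilies of a library). The 366 other subfamilies, each set beside its own 30 neighbours, lay about evenly on either side. Their median H3K9me2 gap was -0.00317 in 5-aza-CdR and -0.00645 in PBS. The share of them with a lower gap ran from 3.55% for LTR12B to 65.8% for LTR12_ in 5-aza-CdR. In PBS it ran from 6.01% for LTR12B to 69.7% for LTR12D. For H3K9me3 the members' median gap to the neighbours was 0.0118 in 5-aza-CdR, with 3 of 7 under, and -0.00422 in PBS, with 5 of 7 under. The other subfamilies had median H3K9me3 gaps of 0.00133 in 5-aza-CdR and -0.000227 in PBS. Against the straight line, 1 of 7 members was under it for H3K9me3 in 5-aza-CdR and 2 of 7 in PBS. The members' median gap was then 0.54 SDs in 5-aza-CdR and 0.36 in PBS, where the neighbours gave 0.058 and -0.12.

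LTR12B stood at the low end of its neighbours, whose densities ran from 0.0130 to 0.0161. For H3K9me2 in 5-aza-CdR it had -0.404 against a neighbour median of -0.0746, and 0 of 30 neighbours were lower, the lowest being at -0.401. In PBS it had -0.789 against -0.573, with 1 of 30 lower. For H3K9me3 it had 0.0167 against 0.230 in 5-aza-CdR and -0.565 against -0.529 in PBS, with 2 of 30 lower in each. In 6 settings, the main one included, LTR12B was under its neighbours or the fitted trend in each of the 4 libraries. The gap ranged from -1.30 to -0.376 SDs. Omitting LTR5 and LTR11, which counts among the 6, rescaled all gaps of a library alike and could not turn a sign.

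LTR10D, the LTR nearest to LTR12B in CpG density (both 0.0146), had H3K9me2 z-scores of -0.189 in 5-aza-CdR and -0.741 in PBS. Its H3K9me3 z-scores were 0.114 in 5-aza-CdR and -0.552 in PBS. LTR12B minus LTR10D was thus -0.215 for H3K9me2 in 5-aza-CdR and -0.0473 in PBS.

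LTR12_ stood highest of the members against its neighbours for both marks in 5-aza-CdR, and for neither in PBS. Its H3K9me2 gap was 0.0650 in 5-aza-CdR, with 23 of 30 neighbours lower, and 0.00135 in PBS, with 15 of 30 lower. Its H3K9me3 z-score in 5-aza-CdR was 0.463 against a neighbour median of 0.174, with 27 of 30 neighbours lower, and the gap stayed between 1.26 and 1.55 SDs in the 6 settings. In PBS its H3K9me3 z-score was -0.542, as was the neighbour median, with 13 of 30 lower. LTR1, the nearest to it in CpG density (0.0213), had 0.0724 in 5-aza-CdR and -0.550 in PBS.

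LTR12 and LTR12F were also above their neighbours for H3K9me3 in 5-aza-CdR, by 0.165 and 0.121, with 23 and 25 of 30 neighbours lower. In PBS LTR12 was above them by 0.0226, with 23 of 30 lower, and LTR12F had a gap of -0.00422, with 12 of 30 lower. For H3K9me2 in 5-aza-CdR, the gap was -0.111 at LTR12 and 0.0480 at LTR12F. In PBS the H3K9me2 gap was -0.00983 at LTR12 and -0.0761 at LTR12F. The latter was negative in 6 of 6 settings, but only -0.0197 SDs against the straight line, where the neighbours gave -0.41. LTR3A, nearest to LTR12 in CpG density (0.0166), had H3K9me2 z-scores of -0.0776 in 5-aza-CdR and -0.782 in PBS. LTR7Y, nearest to LTR12F (0.0186), had -0.250 in 5-aza-CdR and -0.677 in PBS.

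**Figure D4:**
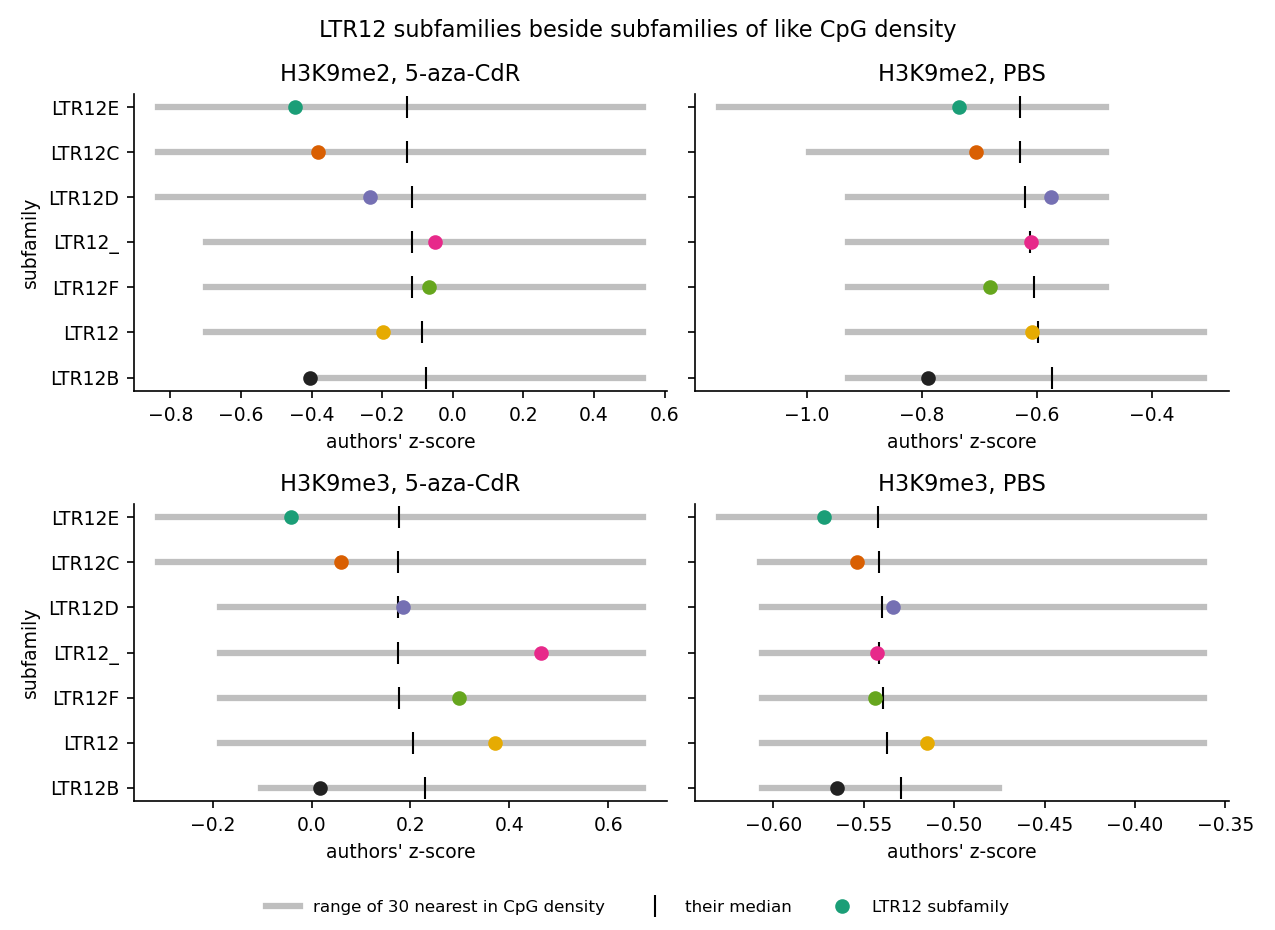
The authors' z-score (horizontal axis, scaled separately in each panel) of each LTR12 subfamily (coloured point) beside the range (grey bar) and median (tick) of the 30 subfamilies nearest in CpG density, by mark and treatment. LTR12B lies at the left end of its bar for H3K9me2 in 5-aza-CdR and left of the tick in every panel, and LTR12_ lies far right of the tick in 1 panel, H3K9me3 in 5-aza-CdR.

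LTR12E, LTR12C and LTR12D have few subfamilies of like density. Of the 30 neighbours of each, 28 had a lower CpG density, down to 0.0149 for LTR12E, 0.0147 for LTR12C and 0.0146 for LTR12D. The neighbours of LTR12, LTR12_ and LTR12F were also mostly lower in density, 25, 24 and 23 of 30. Against their neighbours the H3K9me2 gap was -0.317 at LTR12E and -0.254 at LTR12C in 5-aza-CdR, and -0.106 and -0.0777 in PBS. Both members lay above the straight line on log10 CpG density in all 4 libraries, so their gaps have no settled sign. LTR12D lay close to its neighbours for H3K9me3 in 5-aza-CdR (gap 0.0118) and under them for H3K9me2 (-0.120), which also turned with the straight line, to 0.46 SDs from -0.41 by neighbours.

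The closest subfamilies in density to these 3 were of low-copy HERV-Fc elements and MER48. HERV-Fc1_LTR1 (0.0497), nearest to LTR12E, was lower than it in every library, with H3K9me2 z-scores of -0.677 in 5-aza-CdR and -0.996 in PBS. HERV-Fc2_LTR (0.0331), nearest to LTR12C, had H3K9me2 z-scores of -0.835 in 5-aza-CdR and -0.639 in PBS, so that it was lower than LTR12C in 5-aza-CdR and higher in PBS. MER48 (0.0301), nearest to LTR12D, had -0.0318 in 5-aza-CdR and -0.592 in PBS.

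The treatment difference could be set beside CpG neighbours in the same way. For H3K9me2 the members' differences were under the neighbour median at 5 of 7 subfamilies, with a median gap of -0.106. The gaps ran from -0.180 at LTR12E to 0.145 at LTR12F. For H3K9me3 they were under it at 3 of 7, with a median gap of 0.0246, from -0.183 at LTR12B to 0.311 at LTR12_. The 366 other subfamilies, each set beside its own neighbours, lay about evenly on either side. Their median gap of differences was -0.00276 for H3K9me2 and 0.00143 for H3K9me3. The share of them with a lower H3K9me2 gap ran from 2.73% for LTR12E to 86.9% for LTR12F. For H3K9me3 it ran from 6.56% for LTR12B to 98.4% for LTR12_. Whether 5 of 7 departs from an even split was not tested. Among the members, LTR12C, LTR12D, LTR12E and LTR12 were under for H3K9me2 in all 7 settings, and LTR12F and LTR12_ were over for both marks in all 7. The 7 include the main setting. They also include the omission of LTR5 and LTR11, which could not turn a sign.

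The marks were also compared with each other. At LTR12 the H3K9me3 z-score exceeded the H3K9me2 z-score by 0.364 to 0.568 in 5-aza-CdR, against a median of 0.144 over all subfamilies. In PBS it exceeded it by 0.0420 to 0.224, against a median of -0.0900. LTR12 had the largest excess of the family in 5-aza-CdR, 0.568, with 366 of 373 subfamilies lower, and LTR12B the largest in PBS, 0.224, with 358 lower. With mean 0 and SD 1 in each library the excess ran from 0.0815 at LTR12E to 1.23 at LTR12 in 5-aza-CdR and from -0.181 at LTR12E to 0.761 at LTR12 in PBS. The members' median was then 1.60 robust SDs above the median of all in 5-aza-CdR and 0.47 in PBS. An excess on the deposited scale was not particular to LTR12. LTR10F, outside the family, had H3K9me3 at 0.154 and H3K9me2 at -0.195 in 5-aza-CdR, and -0.532 and -0.603 in PBS. The excess was not set beside CpG neighbours.

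**Figure D5:**
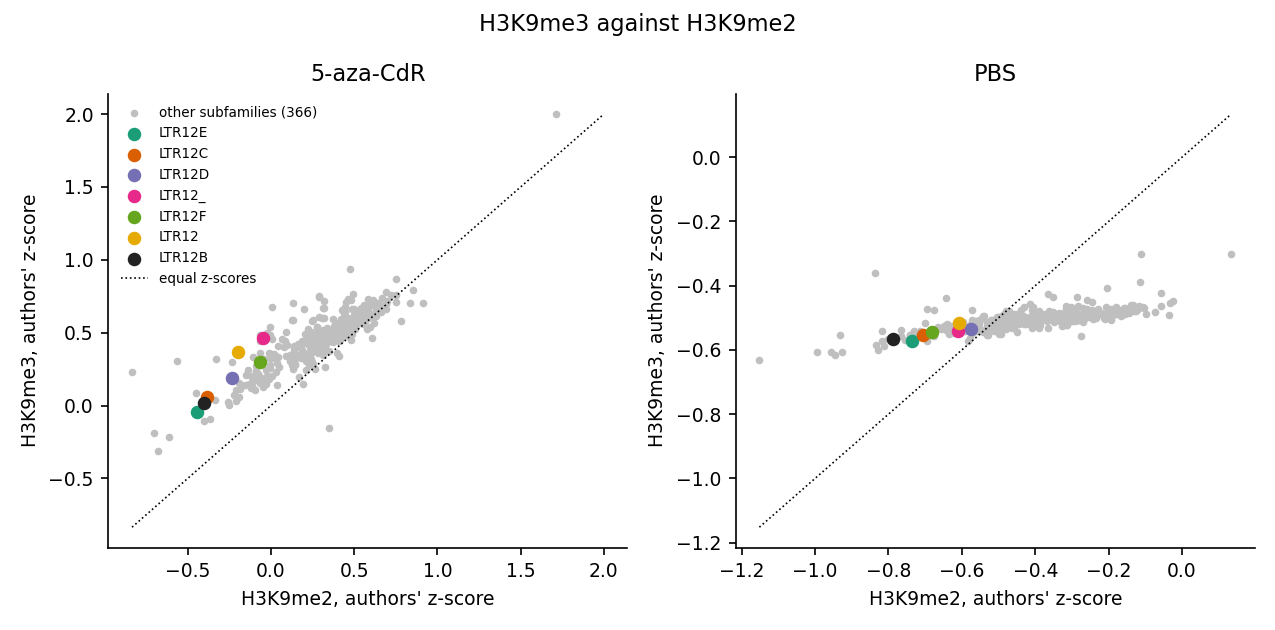
The authors' H3K9me3 z-score (vertical axis) against the H3K9me2 z-score (horizontal axis) in 5-aza-CdR and PBS, with LTR12 subfamilies in colour, the other 366 in grey and a dotted line of equal z-scores. All 7 members lie above the line in both treatments, at the low end of H3K9me2.

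Over the 4 libraries, with each z-score divided by its SD over all subfamilies, the distance between 2 members ran from 0.476 to 3.01 (21 pairs, median 1.62), against a median of 1.96 over all pairs of the 373. LTR12E and LTR12B were the most alike, although their CpG densities of 0.0491 and 0.0146 are the ends of the family. LTR12C and LTR12B came next with 0.587. LTR12E and LTR12_ were the least alike.

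By the same distance, the 5 subfamilies outside LTR12 most like the family's median profile were LTR14 (0.424), LTR2 (0.498), LTR7C (0.546), LTR10F (0.561) and LTR10D (0.562). These 5 were picked as the nearest of 366, and all were nearer to that profile than any member. The profile is a median taken library by library, so no member need lie near it. The nearest member was LTR12D at 0.624, with 7 of the 366 nearer than it. The farthest was LTR12E at 1.58, with 51 of the 366 nearer than it. LTR14, nearest of all, had a CpG density of 0.0155 and H3K9me2 z-scores of -0.157 in 5-aza-CdR and -0.635 in PBS. Its H3K9me3 z-scores were 0.142 in 5-aza-CdR and -0.541 in PBS.

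Related families differed in CpG density as well. Of the LTRs of HERV-W and its relatives (LTR17, LTR30, LTR19 and MER41), the retroviral group to which ERV9 belongs, 11 subfamilies were listed, with a median CpG density of 0.0102. Their median H3K9me2 z-score was 0.187 in 5-aza-CdR and -0.508 in PBS, with a median difference of 0.695, and LTR30 (0.409) was the 1 of 11 below the limit. For H3K9me3 the differences ran from 0.636 at LTR30 to 1.03 at MER41D around a median of 0.848, and 2 of 11 were below the limit. The 4 LTR7 subfamilies of HERV-H, with a median CpG density of 0.0141, had median differences of 0.432 for H3K9me2 and 0.623 for H3K9me3, with 3 of 4 and 4 of 4 below the limits. No test of LTR12 against these families was made.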

How the data were processed

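Single-nucleosome native ChIP-seq of H3K9me2 and H3K9me3 in HCT116 cells gave 4 libraries, 1 per mark and treatment, per the labels' protocols. The series design text names H3K9me2 for both antibodies; the sample labels, which name H3K9me3 for the second pair, were followed. The score values were computed by the authors before they were deposited, as a z-score per LTR subfamily and library, per the file headers. The deposited CpG density is a ratio, per the file headers. The submitters' processing notes name Bowtie2 and hg19. The sources used here do not state read handling, input, depth or the reference of the z-score, so there is no counting interval.

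Computed here (Python 3.11.15, pandas 2.3.3, scipy 1.17.1) were differences of z-scores (5-aza-CdR minus PBS), ranks over the 373 subfamilies, a limit of 2 robust SDs (1.4826 times the median absolute deviation), gaps to the median of the 30 non-member subfamilies nearest in CpG density, and Euclidean distances over the 4 libraries. The limit and the neighbour gap of the treatment differences were tested on simulated levels with a known shift in 5-aza-CdR. That shift was larger than any member's gap of differences in the data, so smaller gaps were not tried. The simulated levels fell in the same straight line with log10 CpG density in each library, so the trend cancelled in the differences. The neighbour gaps of levels, the ranks, distances, correlations and the straight-line trend were not tested in this way. Alternatives were other scales, limits, neighbour numbers (15 and 60), a straight-line trend, omitted subfamilies and each member left out. All members were named, with the nearest subfamily in CpG density of each, the 5 nearest in profile, and the extremes of related families. The members, lists and settings were chosen with earlier results of these data known.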

Additional observations from a re-analysis of the deposited data

How the results depend on the processing

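With 1 library per group no result has a replicate check, depth is unknown, and whether the scale, mapping or an input shaped the levels was not tested. No paired analysis was possible because each group holds 1 library with no replicate number. For the treatment difference at LTR12 (5 of 7 members below the limit for H3K9me2, 3 of 7 for H3K9me3), the counts were 1 and 0 with SD 1 in each library, 0 and 0 on percentile ranks and as residuals from the principal line of PBS and 5-aza-CdR, 2 and 1 with a limit of 3 robust SDs, and 3 and 1 with 2 ordinary SDs. Without the 20% of subfamilies nearest 0 the H3K9me3 count was 1. The members' median, -2.54 robust SDs from the median of all for H3K9me2, was -1.32 with SD 1, -0.22 on ranks and -1.04 as residuals. For H3K9me3 it was -1.77, and -0.72 with SD 1, -1.09 without the 20% nearest 0, -0.069 on ranks and 0.98 as residuals, where LTR12B (0.98), LTR12C (0.58) and LTR12E (1.09) also lay above the median. Leaving out each member in turn gave -2.71 to -2.44 for H3K9me2 and -2.15 to -1.35 for H3K9me3. For the H3K9me2 difference, LTR12F lay above the median of all with SD 1 (0.67), on ranks (0.56) and as residuals (0.89). LTR12_ lay above it on ranks (0.18) and as residuals (0.12). The cause of these changes was not tested.

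The scale with SD 1 was not run for gaps of levels, which it cannot change. Against a straight line on log10 CpG density the members under the trend numbered 2 of 7 for H3K9me2 in each library, 1 for H3K9me3 in 5-aza-CdR, 2 in PBS and 1 for the H3K9me3 difference, where neighbours gave 5, 5, 3, 5 and 3. The median H3K9me2 gap was then 0.46 SDs in 5-aza-CdR and 0.51 in PBS, against -0.41 in both by neighbours. For H3K9me2 in 5-aza-CdR the gaps by the line were 0.47 at LTR12C, 0.46 at LTR12D and 0.69 at LTR12E, and in PBS 0.98 at LTR12C and 1.23 at LTR12E. For H3K9me3 they were 0.46 at LTR12C and 0.34 at LTR12E in 5-aza-CdR, 0.58 and 0.36 in PBS, and 0.30 for the difference at LTR12E. On ranks the gap of the difference at LTR12B was 0.24 for H3K9me2 and 0.12 for H3K9me3. Leaving out each member moved the median level gap of H3K9me3 in 5-aza-CdR between -0.25 and 0.32 SDs, and that of the H3K9me3 difference between -0.15 and 0.43. The excess of H3K9me3 over H3K9me2, 2.11 robust SDs from the median of all in 5-aza-CdR and 1.42 in PBS, was 0.67 in 5-aza-CdR on ranks, and in PBS 0.47 with SD 1 and 0.067 on ranks. The 2 alternatives for the order by CpG density, chosen after seeing the data, gave correlations without LTR12B of -0.77 for H3K9me2 and -0.83 for H3K9me3 in 5-aza-CdR and -0.60 and -0.77 in PBS. Without LTR12E and LTR12C they were 0.40 and 0.30 in 5-aza-CdR and 0.70 and 0.40 in PBS.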
